A study of Mus musculus with 43 samples.

Results

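Among the regions bound by EKLF in fetal liver of Nan/+ mouse embryos, 1844 lay at the ends of protein-coding genes and overlapped no region called in wild type (WT) embryos. These Nan-only gene-end regions were chosen by 2 conditions. The region shared not even 1 bp with a region of the WT list, and its centre lay within 1 kb of the start or the finish of a protein-coding gene in RefSeq's gene table for GRCm38.p6, the assembly that mm10 renders. They made up 11.8% (95% interval 11.3 to 12.4) of the 15564 Nan/+ regions, 13.9% (13.3 to 14.5) of the 13278 Nan-only regions on chromosomes 1 to 19 and X, and 54.4% (52.7 to 56.1) of the 3387 Nan/+ regions at gene ends. Over the whole Nan/+ list 13279 of the 15564 regions were Nan-only, so gene-end regions were Nan-only less often than the list as a whole. The WT list held 9181 regions, and 2701 WT-only regions lay at gene ends, more than the 1844 Nan-only ones. Both lists together held 24745 regions. Being called in Nan/+ and not in WT is what chose the regions, so that contrast is a description here and supports nothing. A further 5 Nan/+ regions, which lay on mitochondrial or unplaced sequence, did not enter.

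The series profiled chromatin of E13.5 fetal liver in 43 samples that fall into 19 groups by genotype and assay, and EKLF was precipitated with the antibody 7B2a. The WT embryos carried 2 normal copies of Klf1, the gene that encodes EKLF, and came from the Nan strain. The Nan/+ embryos were heterozygous for the Nan allele of Klf1 and were littermates of the WT embryos, so their cells hold both the normal and the Nan form of the factor. Each genotype had 3 EKLF ChIP libraries, of 72023512 to 100763687 tags in Nan/+ and 74140385 to 103170594 in WT, and the authors merged these into 1 list per genotype. The lists carry no value per library and no strength per region. Differences between them therefore have no replicate error, no test was possible, and the exact binomial (Clopper-Pearson) 95% intervals printed throughout cover counting error only. A Nan-only region cannot be told apart from one that was bound in WT and missed the threshold. The labels call the cells primary erythroid cells; the lists hold positions and no expression, so that label could not be checked against transcript levels.

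EKLF (KLF1) is a zinc-finger activator of red cell genes, among them the adult beta-globin gene, heme enzymes, membrane proteins and cell cycle regulators. It binds a C-rich element known as the CACCC box, at promoters and at distal enhancers, mostly in erythroid cells. The Nan (neonatal anemia) allele changes a residue of a DNA-contacting zinc finger, and the Nan form is known to bind an altered and looser element while losing part of the normal sites, with anemia and ectopic gene expression in heterozygous mice.

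As examples, the promoter letters around a match are given for 8 Nan-only regions. They are the widest that overlapped a promoter window and held an element reported for the Nan form (CCANGCCC or CCCNGCCC, where N is any base). The match had to lie upstream of the gene's start, inside the region and outside the body of every protein-coding gene in the gene table. Picked for width and for a match, these regions do not stand for Nan-only regions in general. Promoter windows are RefSeq's for GRCm38.p6, from 250 bases before a gene's start to 50 after it, and a gene can have several. Every sequence reads 5′ to 3′ along the gene, capitals mark the match, and a match that reads GGG at its left lies on the opposite strand. The coordinates are those of the printed letters.
Pdcd10, chr3:75557023-75557090, minus strand: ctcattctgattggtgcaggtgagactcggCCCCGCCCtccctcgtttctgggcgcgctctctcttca
Gtf3a, chr5:146948619-146948656, plus strand: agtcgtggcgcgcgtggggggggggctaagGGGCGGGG
Fam53a, chr5:33629845-33629885, minus strand: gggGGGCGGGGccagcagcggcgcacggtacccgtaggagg
Ing2, chr8:47675322-47675389, minus strand: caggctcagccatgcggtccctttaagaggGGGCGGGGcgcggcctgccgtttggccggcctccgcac
Secisbp2, chr13:51651503-51651570, plus strand: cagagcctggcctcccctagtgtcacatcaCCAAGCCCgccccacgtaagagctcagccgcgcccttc
Ccm2, chr11:6546771-6546838, plus strand: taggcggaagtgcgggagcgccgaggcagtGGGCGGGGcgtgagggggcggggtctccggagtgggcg
Mccc1, chr3:36000756-36000823, minus strand: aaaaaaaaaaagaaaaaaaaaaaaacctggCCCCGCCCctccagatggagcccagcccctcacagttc
Sertad3, chr7:27473608-27473675, plus strand: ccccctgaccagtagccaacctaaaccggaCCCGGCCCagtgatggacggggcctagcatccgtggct
In 6 of these, at Pdcd10, Gtf3a, Fam53a, Ing2, Ccm2 and Mccc1, the match read CCCCGCCC, which is at the same time a form of the normal EKLF element (CCNCGCCC). At Secisbp2 it read CCAAGCCC and at Sertad3 CCCGGCCC, spellings outside both normal forms searched, CCNCACCC and CCNCGCCC. The letters printed for Secisbp2 also hold 1 match to a normal form, and those for Sertad3 hold 0.

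For comparison, the same kind of match is shown at the 2 widest shared regions that met the same conditions, where WT and Nan/+ regions overlapped. At Mrm1, which encodes a mitochondrial rRNA methyltransferase, the match read CCCAGCCC, and its letters hold 0 normal matches. At Arl6ip6 it read CCCCGCCC.
Mrm1, chr11:84819516-84819572, minus strand: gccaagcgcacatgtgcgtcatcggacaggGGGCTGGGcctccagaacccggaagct
Arl6ip6, chr2:53192034-53192083, plus strand: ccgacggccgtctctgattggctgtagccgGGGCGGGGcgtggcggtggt

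The letters under Nan-only regions of genes from several of the gene groups below differed from gene to gene. Shown are 6 such windows, because their regions are described with those groups. The groups are cell cycle, DNA replication, autophagy, ubiquitin-conjugating enzyme, and acetyltransferase and deacetylase genes. The capitals mark the first match to any EKLF or Nan form that met the same conditions.
Cdk1, chr10:69352981-69353048, minus strand: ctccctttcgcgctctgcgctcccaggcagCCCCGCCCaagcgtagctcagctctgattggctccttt
Gins3, chr8:95633388-95633455, plus strand: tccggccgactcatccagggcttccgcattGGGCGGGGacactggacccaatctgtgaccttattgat
Map1lc3b, chr8:121590381-121590437, plus strand: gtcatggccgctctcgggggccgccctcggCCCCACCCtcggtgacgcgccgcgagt
Ube2a, chrX:36874206-36874273, plus strand: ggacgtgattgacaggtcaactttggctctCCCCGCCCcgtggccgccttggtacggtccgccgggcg
Sirt1, chr10:63339155-63339222, minus strand: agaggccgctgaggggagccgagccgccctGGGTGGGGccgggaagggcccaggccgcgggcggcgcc
Hdac5, chr11:102230278-102230345, minus strand: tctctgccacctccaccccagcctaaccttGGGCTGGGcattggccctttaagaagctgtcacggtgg
The match read CCCCACCC, a normal CACCC form, at Map1lc3b and Sirt1. At Cdk1, Gins3 and Ube2a it read CCCCGCCC, which counts as a normal and as a Nan form. At Hdac5 it read CCCAGCCC, a Nan form alone. At Orc2, Eef1a1 and Ncoa4 no match met the conditions, and at Alas2 none could, since the gene table places its start inside the body of Apex2. That no match is shown draws nothing about the factor.

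Most Nan-only gene-end regions sat at gene starts, yet a larger share of them than of the other EKLF gene-end regions sat at gene finishes, the ends where transcripts stop. The strand of the nearest gene was known for 1486 of the 1844. Of these, 1132, or 76.2% (73.9 to 78.3), were nearest to a start and 354, or 23.8% (21.7 to 26.1), to a finish. Among WT-only gene-end regions 181 of 2199, or 8.23% (7.12 to 9.46), were nearest to a finish, and among shared gene-end regions of the Nan/+ list 54 of 1282, or 4.21% (3.18 to 5.46). These intervals do not overlap. Few finish regions lay near the start of a neighbour: 23 of the 354, or 6.50% (4.16 to 9.59), also had the start of a protein-coding gene within 1 kb, and 5 overlapped a protein-coding promoter window. With every nearby end of known strand, 22.0% (19.9 to 24.3) of 1461 Nan-only regions had gene finishes alone within 1 kb, against 7.23% (6.17 to 8.40) of 2159 WT-only and 2.79% (1.95 to 3.86) of 1255 shared regions.

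**Figure D1:**
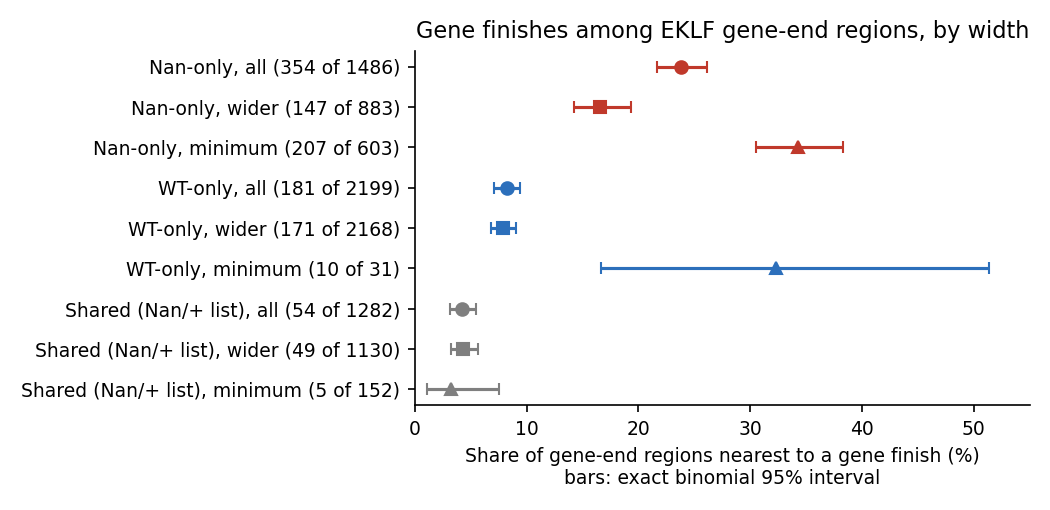
Share (%) of gene-end regions nearest to a gene finish, for Nan-only, WT-only and shared regions, with all widths, the regions wider than their list's minimum, and those at the minimum; bars are exact binomial 95% intervals. The Nan-only share is 23.8% over all widths, 16.6% among wider regions and 34.3% at the minimum width, against 8.23% over all widths for WT-only regions.

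The share at finishes moved with region width, and the 2 lists were called with different widths. A called region cannot be narrower than 176 bp in the Nan/+ list or 126 bp in the WT list. Among Nan-only regions at the minimum width, 207 of 603, or 34.3% (30.5 to 38.3), were nearest to a finish, and among wider ones 147 of 883, or 16.6% (14.2 to 19.3). Wider WT-only regions had 7.89% (6.79 to 9.10) and wider shared regions 4.34% (3.22 to 5.69), both below the Nan-only share. Wider here means above each list's own minimum, so this split did not match widths. The wider Nan-only regions had a median of 299 bp, against 440 bp for all WT-only and 405 bp for all shared gene-end regions. Whether width accounts for the difference was not tested. At the minimum width WT-only regions had 32.3%, but from 10 of 31 regions (16.7 to 51.4), an interval that spans the Nan-only share. Shared regions at the minimum width had 3.29% (1.08 to 7.51), from 5 of 152.

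Around starts, the Nan-only regions centred on the start but spread more widely than the others. The median centre lay at −1.25 bp (quartiles −161 and 232 bp, negative upstream), and 57.0% (54.0 to 59.9) lay within 250 bp of the start. The corresponding shares were 74.9% (72.4 to 77.3) of shared and 72.6% (70.6 to 74.5) of WT-only regions at starts. The median distance from the start was 184 bp for Nan-only, 117 bp for shared and 124 bp for WT-only regions. Fewer of the Nan-only start regions overlapped a protein-coding promoter window, 713 of 1132 or 63.0% (60.1 to 65.8), than of the shared, 87.1% (85.1 to 89.0), or of the WT-only, 84.5% (82.8 to 86.0). Starts of 2 genes on opposite strands lay within 1 kb of 8.69% (7.30 to 10.3) of the Nan-only regions with all strands known, against 13.3% (11.5 to 15.3) of the shared and 13.3% (11.9 to 14.8) of the WT-only. The centres at finishes had no such peak: 26.6% (22.0 to 31.5) lay within 250 bp, the median lay 136 bp past the finish, and 43.2% (38.0 to 48.6) lay inside the gene.

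**Figure D2:**
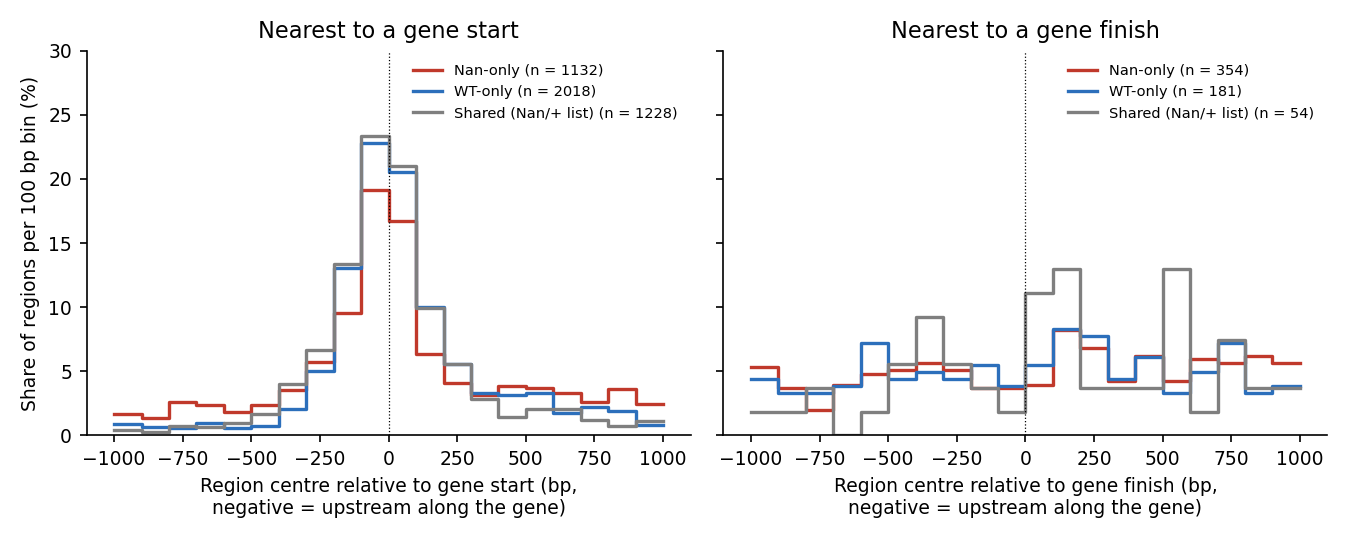
Position of region centres (bp, negative upstream along the gene) relative to gene starts (left) and finishes (right), as the share (%) of regions in each bin, for Nan-only, WT-only and shared regions. At starts every class peaks at the start and the Nan-only line is lower at the peak and higher toward the edges of the window. At finishes the Nan-only line is uneven, without a peak at the finish itself and with its highest bin a short way past it. The shared line there rests on 54 regions.

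Nan-only gene-end regions were narrow, but less so than Nan-only regions elsewhere. Their median width was 226 bp (quartiles 176 and 324 bp, highest 1369 bp), and 40.7% (38.5 to 43.0) were at the minimum of 176 bp. Nan-only regions away from gene ends were at the minimum in 64.5% (63.7 to 65.4) of 11434 cases, and shared gene-end regions of the same list in 12.1% (10.5 to 13.8), with a median of 405 bp. Start and finish regions differed: 35.0% (32.2 to 37.8) of those at starts were at the minimum, with a median of 242 bp, against 58.5% (53.1 to 63.7) of those at finishes, whose median was the minimum itself. Shared regions at finishes were not narrow, with a median of 474 bp over 54 regions. A wider region overlaps a WT region more readily, so the overlap rule bears on the contrast with shared regions.

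**Figure D3:**
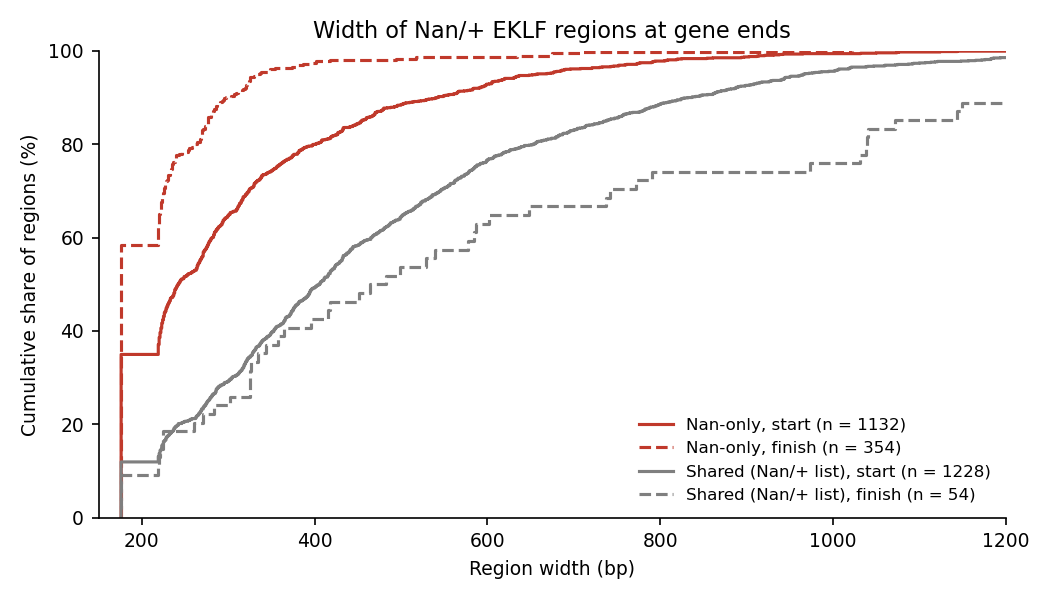
Cumulative share (%) of Nan/+ regions at gene ends by width (bp; the few widest regions lie beyond the axis), split into Nan-only and shared and into starts and finishes. The Nan-only lines begin at 35.0% (starts) and 58.5% (finishes) at the minimum width of 176 bp and the shared lines at 12% and 9.26%.

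The widest Nan-only gene-end regions lay at genes of many kinds. The widest, of 1369 bp (chromosome 19, 10182576 to 10183944), lay at an end of Fads1, a fatty acid desaturase, with its centre 382 bp inside the gene. It was followed by 1231 bp at the start of Ggnbp2 (chromosome 11, 84870410 to 84871640), 1144 bp at the start of Ap3m1, a subunit of the AP-3 vesicle coat whose start lies near that of the adenosine kinase gene Adk, 1124 bp within 1 kb of the starts of Pdcd10 and Serpini1, and 1076 bp at the start of Gtf3a, the RNA polymerase III factor TFIIIA. The rest of the 12 widest lay at Fam53a, Arid4a, Usp9x, Ddx39a, Dennd4b, Sdccag8 and Ing2, with widths from 1032 to 1074 bp. The nearest WT region was 745 bp away at Ing2 and 1.07 kb away at Ggnbp2, and 399 kb away at Pdcd10. Width is set partly by the calling settings and is not a measure of binding strength.

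The widest regions at finishes, picked out after the values were seen, were narrower. At Bad, a pro-apoptotic member of the BCL-2 family, the region was 1022 bp wide with its centre 68.0 bp inside the finish (chromosome 19, 6951327 to 6952348). At Ola1 it was 708 bp, at Picalm, a clathrin adaptor, 675 bp, and at the histone gene H2aw 673 bp, where the gene is so short (0.508 kb) that its start and finish both lay within reach. At Dek, a chromatin protein, the region was 418 bp wide and lay 740 bp past the finish.

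Over the genome, 1972 of 21523 protein-coding genes, or 9.16%, had a Nan-only region at an end, and this is the background for the counts of genes below. Of genes with a known strand 1234 of 17274, or 7.14%, had one at the start and 449, or 2.60%, at the finish, and 83 genes had both. WT-only regions lay at an end of 14.0% of genes and shared regions at an end of 8.15%, and at the finish of 1.71% and 0.793%. Olfactory receptor genes, a family used mainly in the nose, rarely had one, so that without them the Nan-only share was 9.65%. By chromosome the share ran from 6.02% (4.60 to 7.72) on X to 12.1% (9.75 to 14.7) on 19. In 1815 genes there was 1 such region, in 148 there were 2 and in 9 there were 3.

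Many of these genes had EKLF nearby in WT. A shared region lay at an end of 213 of the 1972 genes, or 10.8% (9.46 to 12.3), and a WT-only region at an end of 358, or 18.2% (16.5 to 19.9). No WT region lay in the body or within 10 kb of 1001, or 50.8% (48.5 to 53.0). Of all protein-coding genes 7213 of 21523, or 33.5%, had a WT region there. The share of all genes that lacked one was thus larger than the 50.8%, and larger than the shares for start and finish genes that follow. Genes with a Nan-only region at the start lacked any WT region in 55.3% (52.4 to 58.1) of cases, and genes with one at the finish in 35.0% (30.6 to 39.6). A shared region lay at an end of 7.13% (5.76 to 8.71) of the former and 21.6% (17.9 to 25.7) of the latter. WT regions at gene ends of known strand lay mostly at starts, 91.8% of the WT-only and 95.5% of the shared ones. A Nan-only region cannot overlap them, so the choice of regions bears on both contrasts between start and finish genes. Its part in them was not tested. Start genes and finish genes also differed in size, with median lengths of 21.5 kb and 15.8 kb against 17.4 kb for all genes.

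Measured from the regions, the nearest WT region lay a median of 26.4 kb away (quartiles 4.38 and 88.4 kb), 30.7 kb for start regions and 18.2 kb for finish regions. It lay within 250 bp of 128 Nan-only regions, or 6.94% (5.82 to 8.20), and within 1 kb of 310, or 16.8% (15.1 to 18.6). At Mob3c the Nan-only region abutted a WT region with no base between them. The gap was 5 bp at Zfhx2 and at the start of Agpat4, and 9 bp at Klf10. On the other side of that rule, regions that counted as shared overlapped a WT region by as little as 3 bp at Paxip1, 4 bp at Tmem11, 5 bp at Fmr1 and 7 bp at Eif1b. On the distance rule, regions at Nck2, Tex22 and Szrd1 lay 999 bp from an end and 1 at Dnajb14 lay 998 bp from it, while regions at Nqo2, Tmem33 and Stx4a lay 1002 bp away and were outside. These neighbours of the limits hardly differ in position.

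Genes of heme, globin, iron and membrane function were among those with a Nan-only region, and those named here were at most 403 bp wide and within 8.02 kb of a WT region. Of 15 heme synthesis genes 4 had one, or 26.7% (7.79 to 55.1). At Alas2, which encodes the erythroid enzyme that starts heme synthesis, it was 251 bp wide, 118 bp upstream of the start and 2.07 kb from the nearest WT region (chromosome X, 150547174 to 150547424). At Abcb10, a mitochondrial transporter of the heme pathway, it was 280 bp wide, 809 bp inside the gene from its start and 281 bp from a WT region. At Uros, which encodes uroporphyrinogen III synthase, it was 231 bp from a WT region, and at Snx3, a sorting nexin that recycles the transferrin receptor, it lay 192 bp inside the finish. In the same list 7 genes had a shared region at an end and 10 a WT-only one, so Nan-only regions were the smallest of the 3 classes there.

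Among 8 globin genes 3 had a Nan-only region, or 37.5% (8.52 to 75.5), all at the minimum width of 176 bp. It lay 375 bp upstream of the start of Hba-a1, an adult alpha-globin gene, 304 bp inside the finish of the embryonic gene Hba-x, and 269 bp inside the finish of the adult beta-globin gene Hbb-bt. The WT region nearest to it was 1.26 kb away at Hba-a1, 2.83 kb away at Hba-x and 0.133 kb away at Hbb-bt. Shared regions lay at an end of 3 globin genes. Globin copies are near-identical in places, and how reads that fit several copies were placed is not given in the sources used here, so these positions are uncertain.

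Of 15 genes of iron handling 3 had one: Slc11a2, the endosomal iron transporter DMT1 (403 bp wide), the ferritin light chain gene Ftl1, where it lay 306 bp past the finish, and Ncoa4, the receptor that delivers ferritin to lysosomes, where it lay 7.00 bp inside the start. Of 23 genes of the red cell membrane and skeleton 5 had one, or 21.7% (7.46 to 43.7), with Aqp1, Tmod1, Gypc and Piezo1 the leading 4 by width. At Aqp1, a water channel, and at Tmod1, which caps actin filaments, the nearest WT region was 572 bp away. At Gypc it was 472 bp away, and at Piezo1, a mechanosensitive channel, 4.85 kb. The intervals of the heme, globin, iron and membrane lists all include the 9.16% of all genes. The shares moved both ways with the rules. When a gap of up to 1 kb to a WT region counted as shared, the heme and iron shares were 13.3% and the membrane share 4.35%, against 7.64% of all genes. When only a reciprocal overlap of 50% counted as shared, the heme share was 46.7% (21.3 to 73.4) and the membrane share 47.8% (26.8 to 69.4), with intervals above the 12% of all genes. With ends set at 2 kb the iron share was 53.3% (26.6 to 78.7), against 12.7% of all genes. With regions wider than the minimum 0 of the 8 globin genes had one.

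Of 36 erythroid transcription factors and cofactors 6 had a Nan-only region, or 16.7% (6.37 to 32.8), while 20 had a shared region at an end. At Myb, a regulator of progenitor proliferation, it lay 988 bp inside the start, 36.5 kb from any WT region. At Gfi1b, a repressor needed for erythroid and megakaryocytic growth, it lay 866 bp inside the start, and at Mafk, a partner of NF-E2, 706 bp past the finish and 571 bp from a WT region. The Krueppel-like genes Klf10 and Klf2, and Sp1, which encodes a related factor, had a region of 176 bp each. At Klf2 it lay 929 bp past the finish, 91.0 kb from WT, and at Sp1 24.0 bp inside the finish. With ends set at 500 bp the share of this list was 2.78% (0.0703 to 14.5), against 6.48% of all genes. With ends at 2 kb it was 30.6% (16.3 to 48.1) against 12.7%, and with the reciprocal overlap rule 36.1% (20.8 to 53.8) against 12%. Among wider regions it was 5.56% against 5.74%.

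Cell cycle and DNA replication genes are set beside the 9.16% of all genes with no test. Of 29 cell cycle regulators 8 had one, or 27.6% (12.7 to 47.2), and of 25 replication licensing genes 7, or 28.0% (12.1 to 49.4). Cdk1, the kinase that drives entry into mitosis, had one at each end. The region at its start was 320 bp wide with its centre 45.0 bp upstream (chromosome 10, 69352798 to 69353117), and the region at its finish was 176 bp wide and lay 356 bp past it (chromosome 10, 69334703 to 69334878). The nearest WT regions were 557 and 575 kb away, beyond the upper quartile of 88.4 kb for all Nan-only gene-end regions.

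At E2f1, an activator of S-phase genes, a region of 634 bp (chromosome 2, 154558465 to 154559098) lay 619 bp past the finish and 54.1 kb from WT. The start of the neighbouring gene Necab3 was also within 1 kb of it, so the region cannot be assigned to the finish of E2f1 alone. At Aurkb, a mitotic kinase, a region of 355 bp lay 93.5 bp inside an end, and at the retinoblastoma gene Rb1 a region of 284 bp lay 170 bp outside an end. The strand of these 2 genes was not in the tables used.

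Replication origins are marked by the ORC complex and opened by the MCM helicase with the GINS complex. Orc2 had 2 Nan-only regions at its start, with centres 7.50 and 674 bp inside the gene and the nearest WT regions 98.1 and 97.4 kb away. At Gins3 the region was 176 bp wide, 161 bp upstream of the start and 198 kb from WT. Mcm4 and Gins2 were unlike them, with WT regions 112 and 304 bp away. The same 2 lists had shared regions at an end of 7 of 29 and 5 of 25 genes, and WT-only regions at 11 and 7, so the 3 classes were of like size. Among regions wider than the minimum the licensing share was 12% (2.55 to 31.2), against 5.74% of all genes, and with the 1 kb gap rule 20% (6.83 to 40.7) against 7.64%. Both of those intervals include the share of all genes.

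Genes that act on chromatin and on RNA polymerase II gave shares whose intervals include 9.16%. Of 20 acetyltransferase and deacetylase genes 5 had a Nan-only region, or 25% (8.66 to 49.1), 8 a WT-only one and 0 a shared one. Sirt1, an NAD-dependent deacetylase, had a region of 446 bp whose centre lay 332 bp upstream of the start, 61.7 kb from WT. Kat7, which acetylates histones at origins, had one of 408 bp inside the start, and Hdac5 one of 284 bp 182 bp upstream. Of 28 genes of polymerase pausing and elongation 4 had one, or 14.3% (4.03 to 32.7). Among them were Nelfcd and Nelfe, subunits of the pausing factor NELF, and Mepce, which holds P-TEFb in its inactive pool. The region at Nelfe was 196 kb from WT and lay 39.5 bp from an end of Nelfe. An end of Skiv2l was also within 1 kb of it.

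Of 21 genes of enucleation and autophagy 3 had one, or 14.3% (3.05 to 36.3). At Map1lc3b, which encodes the autophagosome protein LC3B, the region lay 64.0 bp upstream of the start, 271 kb from WT. At Gabarapl1, of the same protein family, it lay 42.0 bp inside the start, 83.9 kb from WT. The third gene was Atg4d, where it lay 789 bp past the finish.

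Genes reported as ectopically expressed in Nan/+ red cells gave 2 of 12, or 16.7% (2.09 to 48.4). At Cd44, a hyaluronan receptor, a region of 176 bp lay 221 bp inside the start, 116 kb from WT (chromosome 2, 102901361 to 102901536), and at Plau, which encodes urokinase, a region of 176 bp lay 36.0 bp outside an end, 87.4 kb from WT. No gene of that list had a shared or a WT-only region at an end. Over all genes 8.15% had a shared and 14.0% a WT-only one. Finding none among 12 genes allows shares up to 26.5%, so this absence does not set the list apart from all genes. Of 19 interferon and inflammatory genes 2 had a Nan-only region, or 10.5% (1.30 to 33.1). The region was 404 bp upstream of the start at Isg15 and 924 bp inside the finish at Rsad2, both interferon-induced genes. Klf1 itself, E2f2, Fli1, Bcl11a, Hamp and Irf7 had none.

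Markers of other cells of the fetal liver gave 0 or 1 gene with a Nan-only region per list. The counts were 1 of 15, or 6.67% (0.169 to 31.9), for megakaryocytes (Gp5, a platelet glycoprotein), the same for hepatoblasts (Foxa3, where the start of Sympk was also within 1 kb), and 0 of 14 for macrophages, 0 of 15 for lymphoid and stem cells and 0 of 11 for endothelium. Counts of 0 in lists this small allow shares up to 23.2%, 21.8% and 28.5%, so the intervals of all 5 marker lists include the 9.16% of all genes. A bound region is no measure of expression, and the part of other cell types in the regions was not tested.

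Housekeeping genes, active in nearly all cells, had the highest share of the 18 lists, 6 of 15 or 40.0% (16.3 to 67.7). At Eef1a1, which encodes the translation elongation factor eEF1A1, the region was 894 bp wide with its centre 150 bp upstream of the start, 2.35 kb from WT. At Ppia, cyclophilin A, it lay 646 bp inside the start and 0.327 kb from WT, and at the tubulin gene Tubb5 996 bp inside the finish. WT-only regions lay at an end of 6 of the same 15 genes and shared regions at an end of 3. With ends set at 500 bp the share was 13.3% (1.66 to 40.5), an interval that includes the 6.48% of all genes, and with ends at 2 kb it was 46.7% against 12.7%.

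**Figure D4:**
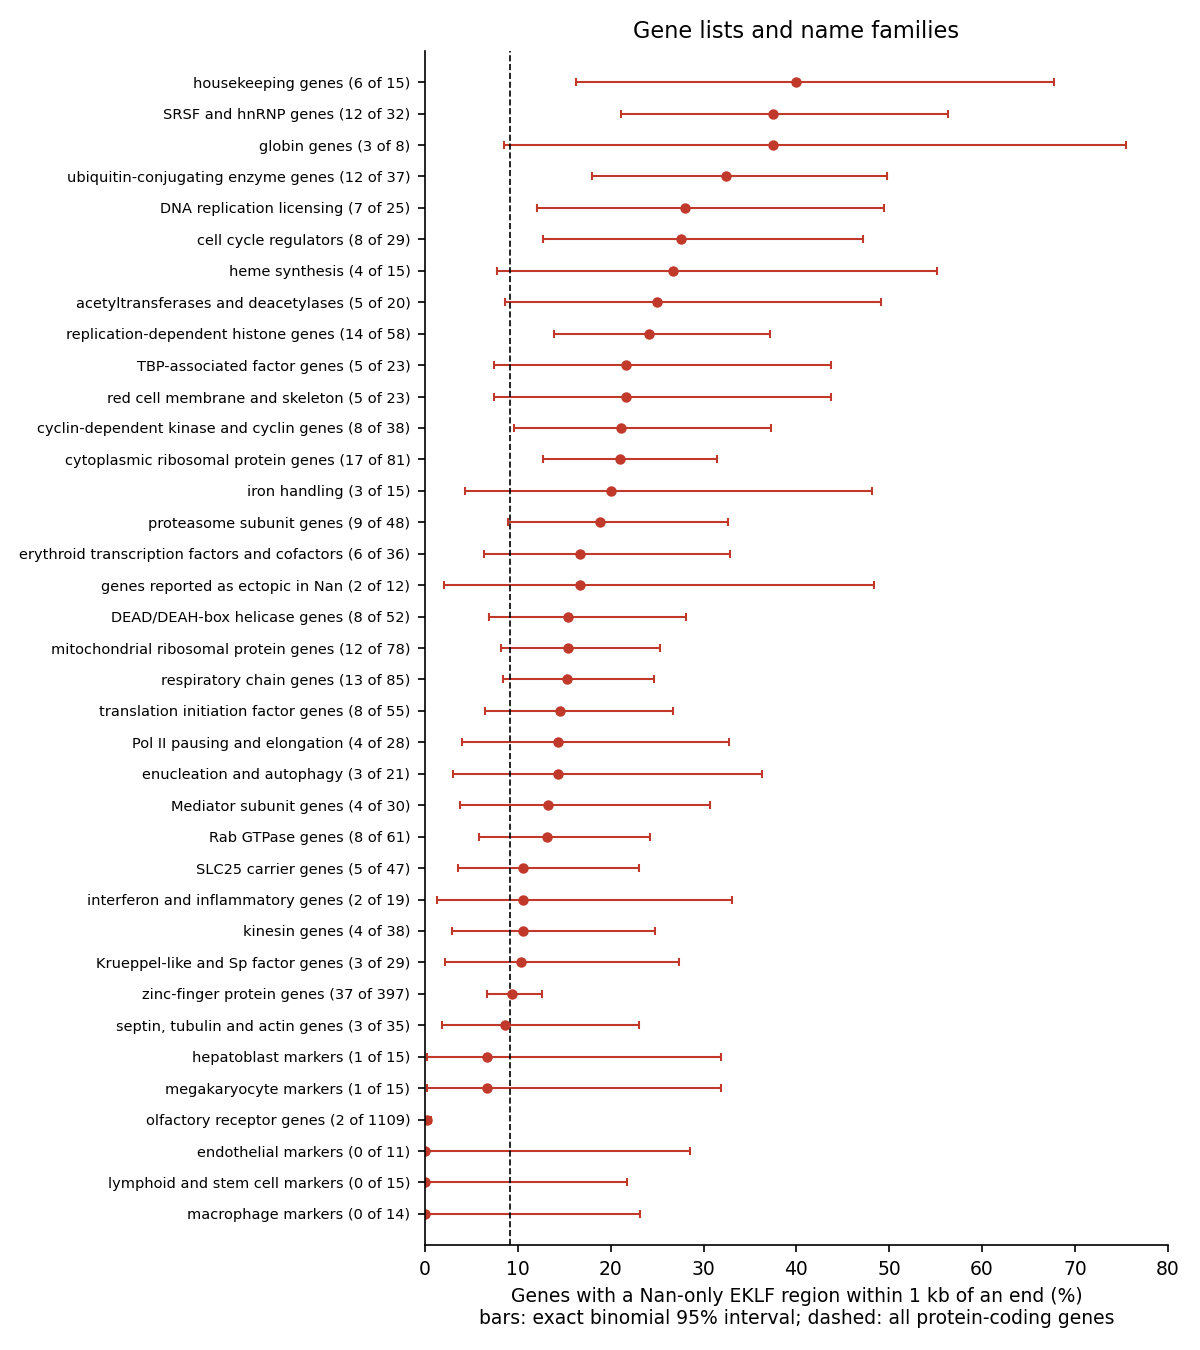
Share (%) of the genes in each of 18 lists and 19 name families that had a Nan-only region within 1 kb of an end, with exact binomial 95% intervals; the dashed line is the 9.16% of all protein-coding genes and the counts stand beside each name. Housekeeping genes and the SRSF and hnRNP genes are highest, and olfactory receptor genes, with 2 of 1109, lie near 0.

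Among genes grouped by name, more splicing factor genes had a Nan-only region at the finish than at the start. Of 32 SRSF and hnRNP genes, which encode proteins that bind pre-mRNA and steer its splicing, 12 had a Nan-only region, or 37.5% (21.1 to 56.3), beside 13 with a shared and 9 with a WT-only one. Of the 30 with a known strand, 8 had one at the finish and 4 at the start, and 3 had a WT-only and 1 a shared region at the finish. The ubiquitin-conjugating enzyme genes (5 at the finish, 4 at the start), the Krueppel-like and Sp genes (2 and 0) and the septin, tubulin and actin genes (2 and 1) also had more genes at the finish. Over all genes those finish shares were 2.60%, 1.71% and 0.793%. The leading genes by width were Hnrnpr, with 2 regions at its start (708 and 380 bp), Hnrnpll (443 bp) and Srsf9, with 2 upstream of its start (356 and 313 bp).

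The splicing factor genes with a finish region are named after their values were seen. At Hnrnpa1 the region was 325 bp wide, 464 bp inside the finish and 2512 bp from a WT region. At Hnrnpa2b1 it was 320 bp wide, 119 bp inside the finish and 609 bp from a WT region. At Srsf3 it lay 954 bp inside the finish, and at Hnrnpl and Hnrnpdl it lay past the finish, in Hnrnpdl by 103 bp. At Hnrnph3, Hnrnpul1 and Srsf10 it had the minimum width of 176 bp. All 8 finish genes had a WT region within 10 kb of the Nan-only one. With ends set at 500 bp the share of SRSF and hnRNP genes was 21.9% against 6.48% of all genes, and with the reciprocal overlap rule 50% against 12%.

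Among 37 ubiquitin-conjugating enzyme genes 12 had a Nan-only region, or 32.4% (18 to 49.8), 11 a WT-only and 5 a shared one. Ube2a, Ube2b and Ube2g2, the leading genes by width, each had 2 regions. At Ube2a, an enzyme of DNA damage tolerance, the nearer region was 361 bp wide and centred 1.50 bp upstream of the start, 211 kb from WT (chromosome X, 36874114 to 36874474). At Ube2b, its close homologue, the regions lay 66.5 bp upstream of the start and 676 bp inside it, 2.80 and 2.05 kb from WT. Of the 30 with a known strand 5 had a region at the finish.

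Replication-dependent histone genes gave 14 of 58, or 24.1% (13.9 to 37.2), with 34 having a shared region at an end and 22 a WT-only one. These genes are so short that 1 region can reach both ends of a gene and neighbours as well: the 401 bp region at H2bc12 was also within 1 kb of the start of H2ac12, and 2 regions lay at H4c8. Start and finish cannot be told apart there. When a gap of up to 1 kb to a WT region counted as shared, the share was 6.90%, against 7.64% of all genes, and with the reciprocal overlap rule it was 43.1% (30.2 to 56.8) against 12%. The copies are also near-identical, so their positions are uncertain.

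Cytoplasmic ribosomal protein genes gave 17 of 81, or 21.0% (12.7 to 31.5), led by Rps18 (686 bp, within 1 kb of its start and that of Vps52), Rpl15 (513 bp, 180 bp upstream of the start) and Rpl36 (455 bp). In this family 26 genes had a WT-only region at an end and 19 a shared one, so Nan-only regions were the smallest of the 3 classes. Mitochondrial ribosomal protein genes gave 12 of 78, or 15.4% (8.21 to 25.3), beside 16 with a WT-only and 11 with a shared region. Among the 12 was Mrps25, whose region of 573 bp lay 65.5 bp inside the start. The cytoplasmic share was 13.6% against 6.48% of all genes with ends set at 500 bp, 34.6% against 12.7% at 2 kb and 32.1% against 12% with the reciprocal overlap rule. Respiratory chain genes gave 13 of 85, or 15.3% (8.40 to 24.7), and there 31 genes had a WT-only region and 4 a shared one. Proteasome subunit genes gave 9 of 48, or 18.8% (8.95 to 32.6), beside 15 with a WT-only and 6 with a shared region. The Nan-only regions of 477 bp at Psma4 and 376 bp at Psmd13 were centred within 14.0 bp of the start. Processed copies of ribosomal protein genes are common in the genome, and how shared reads were placed is not given in the sources used here.

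Cyclin and cyclin-dependent kinase genes gave 8 of 38, or 21.1% (9.55 to 37.3), a family that overlaps the cell cycle list, with regions of 561 bp at Cdk8 and 480 bp at Cdk5. The zinc-finger genes named Zfp gave 37 of 397, or 9.32% (6.65 to 12.6), close to the background. Kinesin genes gave 4 of 38 and Krueppel-like and Sp genes 3 of 29, or 10.5% and 10.3%, also close to it. Olfactory receptor genes gave 2 of 1109, or 0.180% (0.0218 to 0.650), with regions of 176 bp at Olfr212 and Olfr610. The other families, of Rab, SLC25, initiation factor, Mediator, DEAD/DEAH-box, TBP-associated factor and septin, tubulin and actin genes, gave 8.57% to 21.7%, with intervals that include 9.16%. Of the 37 lists and families, the olfactory receptor family was the one whose whole interval lay under 9.16%, and 8 had theirs above it. Under the 6 other overlap, distance and width rules, each set beside the share of all genes by that rule, 3 of the 8 had theirs above in every case: the SRSF and hnRNP, the cytoplasmic ribosomal protein and the ubiquitin-conjugating enzyme genes. For the cyclin and cyclin-dependent kinase genes it was above under 2 of the 6. No enrichment was tested, the lists overlap, and nothing is called particular to a list from these shares.

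Among the 9 genes with 3 Nan-only regions, several had them at both ends. Atp6v0c, a subunit of the proton pump of lysosomes, had 820 bp centred 20.0 bp inside its start, another of 176 bp further inside, and one of 283 bp past its finish, which also lay within 1 kb of the start of Amdhd2. Hmga1, an architectural chromatin protein, had 2 at the start and 1 past the finish that it shared with AI413582. Ola1, Agpat4, Nck2 and Pacs2 also had regions at both ends. Osm, which encodes the cytokine oncostatin M, had 3 in a row within 985 bp of an end. Of all Nan-only gene-end regions 187, or 10.1% (8.80 to 11.6), had another within 2 kb, so they are not independent of each other.

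Promoter windows under Nan-only regions held the normal and the Nan element at nearly the same rate. Windows of 856 promoters, of 781 genes, were overlapped by a Nan-only region at a gene end. A normal EKLF form (CCNCACCC or CCNCGCCC, either strand) was present in 59.3% (56.0 to 62.7) and a Nan form (CCANGCCC or CCCNGCCC, either strand) in 57.9% (54.6 to 61.3). Of all 21045 protein-coding promoter windows 42.1% and 40.6% held them. A Nan form with C as the fourth letter is also a normal CCNCGCCC form and counts under both, so these shares are not independent. Windows under WT-only regions held a Nan form in 58.6% (56.5 to 60.7) and under shared regions in 65.7% (63.1 to 68.2). The Nan-only windows were thus not above the WT-only windows in the element reported for the Nan form.

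With the spellings that both elements allow left out, the Nan-only windows were again near the WT-only ones in the Nan form. A Nan form where the fourth letter is not C was present in 27.7% (24.7 to 30.8) of windows under Nan-only regions, 26.6% (24.7 to 28.5) under WT-only, 29.2% (26.8 to 31.8) under shared and 22.3% of all windows. Of the normal forms, CCNCGCCC stood in 52.3% (48.9 to 55.7) against 31.9% of all windows. The CACCC form, CCNCACCC, stood in 18.9% (16.4 to 21.7) against 18.2%, so it was no more frequent than in all promoters.

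Base composition moved with these shares. The median GC content was 62.0% in windows under Nan-only regions, 63.3% under WT-only, 65.3% under shared and 56.7% over all windows. In the same order, the median ratio of observed to expected CpG (a C followed by a G) was 0.801, 0.841, 0.851 and 0.574. In windows of 65% GC or more, a Nan form was present in 74.8% (69.7 to 79.4) under Nan-only regions and 73.5% of all. In those of 55 to 65% GC the shares were 55.2% (50.0 to 60.3) and 50.2%. In those under 55% GC they were 29.7% (22.7 to 37.5), from 158 windows, and 15.4%. The normal form gave 76.9%, 55% and 33.5% against 75.9%, 51.4% and 16.8%. The difference from all promoters was thus small in GC-rich windows and larger in GC-poor ones. Under 55% GC it lay in the CCNCGCCC form, present in 25.3% (18.7 to 32.8) against 7.43% of all. The CACCC form gave 11.4% (6.89 to 17.4) against 10.6%, and the Nan form without the shared spellings gave 9.49% (5.41 to 15.2) against 9.99%. Windows under WT-only and shared regions in that GC range held a Nan form in 23.5% (18.8 to 28.7) and 27% (20.1 to 34.8) and a normal form in 32.5% and 29.6%, so the difference was not particular to the Nan-only windows. The CCNCGCCC form itself holds a CpG. Neither CpG nor the exact GC content was matched within a GC range, and their part in the difference was not tested.

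**Figure D5:**
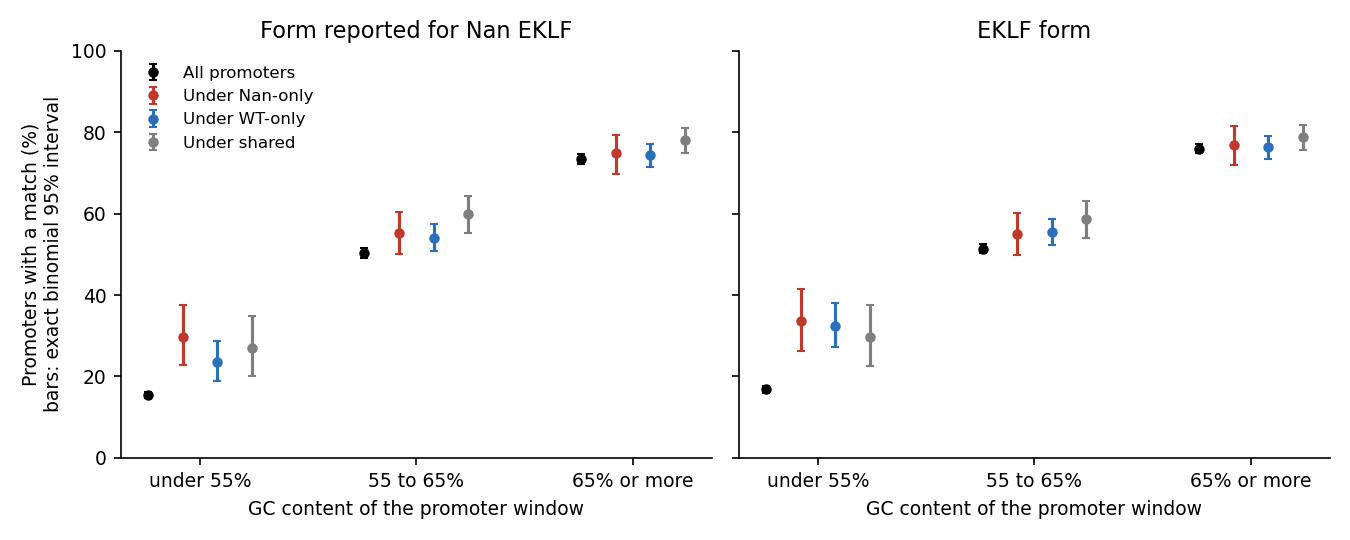
Share (%) of promoter windows with a match to the Nan form (left) or the normal EKLF form (right), by GC content of the window, for all promoters and those under Nan-only, WT-only and shared regions; bars are exact binomial 95% intervals. Shares rise with GC content in every class, and Nan-only windows under 55% GC lie at 29.7% and 33.5% against 15.4% and 16.8% of all promoters.

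Within the windows, matches were denser under the region than beside it. The Nan form occurred 4.15 times per kb under Nan-only regions and 2.74 times per kb in the rest of the same windows, and the normal form 4.17 and 2.85 times. Under shared regions of the Nan/+ list the densities were 5.44 and 5.58 per kb, against 2.99 and 2.91 beside them. Under WT-only regions they were 4.11 and 4.38 per kb, against 2.21 and 2.33 beside them. The contrast was thus smallest for the Nan-only regions. Base composition under and beside the regions was not compared. Of other elements, the ETS core CCGGAAG stood in 24.4% (21.6 to 27.4) of windows under Nan-only regions, 23.9% under WT-only, 20.9% under shared and 11.7% of all. In the same order, the TATA box TATAAA stood in 4.91% (3.56 to 6.57), 5.11%, 5.91% and 12.7%. The E-box CANNTG gave 62.6% (59.3 to 65.9), 56.9%, 54.8% and 69.0%, and the GATA box AGATAA 6.07% (4.57 to 7.89), 4.83%, 5.45% and 9.68%. The ETS, TATA and GATA shares under Nan-only regions were thus near those under the other EKLF regions. A match is a description of letters, not a bound site. Sequence under finish regions and outside the promoter windows was not analysed here.

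Hairpins of 3 microRNAs, of 1005 placed in RefSeq's table, lay under Nan-only gene-end regions. These were Mir8112 in a region of 617 bp at the start of Krcc1, Mir5131 in a region of 176 bp at the start of Ddhd1, and Mir484 in a region of 730 bp at the start of Marf1 (chromosome 16, 14159011 to 14159740). No level of these microRNAs was measured.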

How the data were processed

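EKLF ChIP was analysed from the 1 region list per genotype that the authors deposited. Per the file headers, the authors called regions with HOMER on mm10, setting 3 ChIP libraries against 2 input libraries, 1 of them used again, with a q of 0.01 and a fold of 4. HOMER's DESeq2 step used a log2 fold of 2 and an FDR of 0.01, per the file headers. Peak size and minimum distance were 175 and 300 bp for Nan/+ and 125 and 250 bp for WT, per the file headers. The score deposited by the authors was 1 in every line and was not used further, and the deposited positions (other values) are printed counted from 1. Bowtie2 2.1, bcl2fastq 2.17, deepTools 3.5 and SAMtools 1.1 are named per the submitters' processing notes, and how reads that fit several places were handled is not given in the sources used here.

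Python 3.11.15, numpy 2.4.6, pandas 2.3.3, SciPy 1.17.1 and matplotlib 3.10.9 were used. Of 21900 protein-coding genes in RefSeq's GRCm38.p6 table, 108 on alternate loci and 269 outside chromosomes 1 to 19 and X were left out. The strand, needed to tell start from finish, came from RefSeq's promoter windows and was known for 17274 of the 21523 genes left. A region belonged to the gene with the nearest end; a gene had every region centred within 1 kb of its ends. The scripts were tested on simulated data. The 18 gene lists (339 of 340 entries matched), 19 name families, 13 motifs and the regions themselves were chosen with earlier results of these data known. Named genes were those of the 12 widest regions, up to 4 per list and 3 per family by width, the 8 with most regions, the 4 nearest each limit, those with printed sequences, and Klf1, E2f1, E2f2, Cdk1, Fli1, Bcl11a, Hamp, Irf7 and Cd44. Other genes named were chosen after their values were seen, and so was the rule that printed letters lie outside gene bodies. Other overlap, distance and width rules were tried as alternatives.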

Additional observations from a re-analysis of the deposited data

How the results depend on the processing

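The alternative rules were a shared region defined by 50% reciprocal overlap, or by a gap of at most 250 bp or 1 kb, gene ends within 500 bp or 2 kb, and only regions wider than the minimum. For the motif shares, a further rule took only promoter windows that held the centre of a region. It gave a Nan form in 58.9% (54.9 to 62.9) and a normal form in 60.6% (56.5 to 64.5) of 606 windows. Of 266 alternative values, 218 stayed within 1.5 times the main count or inside the main interval, as did 194 of the 222 for lists and families. The intervals of small lists are wide, so staying inside them says little about how stable those shares were. The heme share of 26.7% (7.79 to 55.1), for example, stayed inside its interval at 13.3% and at 46.7%. The number of Nan-only gene-end regions, 1844, left the range of 1.5 times with wider regions alone, where it was 1093. The share nearest to a start, 76.2%, became 81.1% with reciprocal overlap, 82.0% at 500 bp, 71.6% at 2 kb and 83.4% among wider regions, so finishes weigh more the farther the reach and the narrower the regions. The share of genes with such a region, 9.16%, became 12% with reciprocal overlap, 8.51% and 7.64% with a gap of 250 bp and 1 kb, 6.48% at 500 bp, 12.7% at 2 kb and 5.74% among wider regions. The following alternatives were chosen after seeing the data, as were the reciprocal and 1 kb gap rules for the share of genes. The median width, 226 bp, became 236 bp with reciprocal overlap, 238 bp at 500 bp, 221 bp at 2 kb and 299 bp among wider regions. The median distance to a WT region, 26.4 kb, became 10.1 kb with reciprocal overlap, 31.0 and 40.7 kb with a gap of 250 bp and 1 kb, 32.2 kb at 500 bp and 22.6 kb at 2 kb. These moves follow from which regions each rule admits. No paired analysis was possible because the libraries of a genotype were merged into a single list, and for the same reason no replicate could be left out. The limits are that 1 list per genotype gives no replicate error, that the lists were called with different widths, that neighbouring regions are not independent, and that 358 of the 1844 regions had no strand.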
